A study of Mus musculus with 2 samples.

Results

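The nuclear genes of the mitochondrial respiratory chain and ATP synthase were read in mouse implantation sites, pieces of pregnant uterus dissected with the embryo inside. Members were all probe sets with a single gene symbol that starts with Nduf, Sdha, Sdhb, Sdhc, Sdhd, Uqcr, Atp5, Cox4i, Cox5, Cox6, Cox7 or Cox8, which gave 160 probe sets of 87 genes, out of 22690 probe sets and 12393 named genes on the array. The rule itself uses gene names and no measured value. The control group had 1 array, from implantation sites of control females. The Cbs null group had 1 array, from implantation sites of females homozygous for a deficiency of Cbs, the gene of cystathionine beta-synthase. The females of both groups were 4 months old, of the C57Bl/6J X OLA129 background, and at day 8 of pregnancy. The labels give no genotype for the embryo within a site and do not say whether sites or animals were pooled. With 1 array per genotype there was no test and no error between animals, so each difference below describes these 2 arrays.

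Mitochondria make ATP by passing electrons from NADH and succinate to oxygen along a chain of membrane complexes. Complex I takes electrons from NADH and complex II from succinate, complex III passes them to cytochrome c, complex IV hands them to oxygen, and ATP synthase, or complex V, uses the proton gradient that complexes I, III and IV build. Most subunits are encoded in the nucleus and are made in every tissue that respires, and a few subunits of complex IV have isoforms that are limited to muscle, lung, testis or brown fat. By class, 33 of the 87 genes belong to complex I, 4 to complex II, 8 to complex III, 16 to complex IV (Ndufa4 included, now counted there) and 17 to complex V. The other 9 genes are caught by the name rule without being subunits: 8 assembly factors and Cox7a2l, which joins complexes into supercomplexes.

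Signal was high for most of these genes and nearly equal on the 2 arrays. A probe set was kept where its mean over the 2 arrays was at least 70.5, the median of all probe sets, and a gene was represented by the brightest of its kept probe sets. The filter kept 80 of the 87 genes, each with both values above 70.5, and left out Cox4i2, Cox6a2, Cox7a1, Cox7c, Cox8b, Ndufb1 and Ndufaf5. Of the 80 kept genes, 69 lay in the brightest tertile of all kept genes, where the mean signal was at least 372.9. Signals of different probe sets depend on probe affinity, so they do not rank the genes by amount of transcript.

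Log2 ratios, Cbs null over control throughout, had a median of 0.00 over the 80 kept genes, with quartiles of -0.08 and 0.08. Over all 7079 kept genes the median was 0.02, with quartiles of -0.11 and 0.16, and over the 2360 genes of the brightest tertile it was -0.00, with quartiles of -0.11 and 0.10. A limit of 0.32 on either side, which stands for 5 units of signal against 4, was used to call genes apart, and 77 of the 80 genes (96.25%) lay within it. The same held for 84.0% of all kept genes and for 89.0% of those in the brightest tertile. Ndufa6 and Ndufa12 were past the limit on the higher side, where 9.69% of all kept genes and 5.59% of the brightest tertile were. Cox6b2 alone was past it on the lower side, where 6.31% of all kept genes and 5.42% of the brightest tertile were. At 1.5-fold or more, 0 members were higher, where 2.46% of all kept genes were, and Cox6b2 alone was lower, where 1.33% were. At 2-fold or more 0 members were higher, where 0.622% of all kept genes were. Of the 80 genes 39 had a ratio below 0, against 44.9% of all kept genes. In bulk tissue, fewer cells of a type and less RNA per cell cannot be told apart, and equal signal from a whole site can hold opposite differences in its cells.

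**Figure D1:**
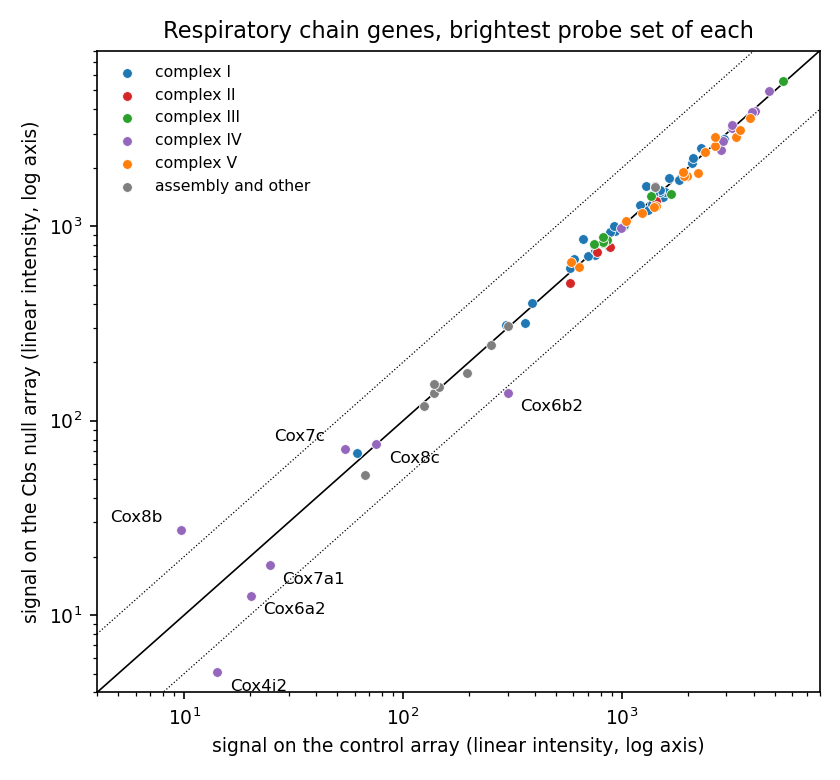
Signal on the control array (x axis) against the Cbs null array (y axis), both linear intensity on log axes, for the brightest probe set of each of the 87 genes, coloured by complex. The solid line marks equal signal and the dotted lines 2-fold differences: nearly all genes lie on the line, and Cox6b2, at 300.4 and 139.5, lies below the lower dotted line among the genes that passed the filter.

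Complex I genes lay on both sides of equal signal. The 32 kept genes had a median log2 ratio of 0.02 and a range of -0.17 to 0.38, with 20 above 0 and 12 below. The 12 were 37.5%, against 44.9% below 0 over all kept genes and 50.4% in the brightest tertile. Most of the 6 measured core subunits carry the flavin or iron-sulfur centres that move electrons. In their brightest probe sets all 6 had ratios slightly above 0, with a median of 0.08. Ndufs3, a core subunit without such a centre, had the highest of these, reading 600.9 in control and 676.4 in Cbs null, a log2 ratio of 0.17. Ndufs8 had 0.11 in its brightest probe set, but 2 of its 6 kept probe sets were below 0. Ndufv1, which binds NADH and flavin, read 932.1 and 947.4, a ratio of 0.02, with 0.14 and -0.11 in its other probe sets. Its partner Ndufv2 read 1384.2 and 1458.6 in its brightest probe set, a ratio of 0.08, but its other kept probe sets had -0.10 and -0.38. A core subunit can therefore point either way by the choice of probe set.

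Among the accessory subunits of complex I, which surround the core and stabilise it, the 2 highest ratios were those of Ndufa6 and Ndufa12. Ndufa6 rests on a single probe set, with 662.6 in control, 861.5 in Cbs null and thus a 1.30-fold higher signal. Ndufa12 read 1288.6 and 1615.7 in its brightest probe set, a log2 ratio of 0.33, and its other kept probe sets had 0.50 and 0.09. The size for Ndufa12 thus depended on the probe set, while the 3 ratios had the same sign. All 3 are of a less specific kind (IDs ending in _x_at or _s_at), so without that kind Ndufa12 was not kept. Its remaining probe set was below the filter, at 34.9 and 57.6. Ndufa7 had all 5 of its probe sets above 0, from 0.05 in the brightest to 0.52. At the other end Ndufs4, needed for the last steps of assembly, read 359.3 and 319.4, a log2 ratio of -0.17. Its other kept probe set had -0.32, at 88.1 and 70.4, and a probe set just under the filter had 0.24. Ndufa5 had -0.16 and, in its other probe set, 0.09. Ndufb6, a subunit of the membrane arm, had -0.12 and -0.03. The 11 kept Ndufb and Ndufc genes, mostly of the membrane arm, had a median of -0.06 and the 12 Ndufa genes one of 0.02. Ndufa1, the brightest complex I probe set on both arrays, read 2924.8 and 2800.3.

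Complex II, succinate dehydrogenase, also works in the citric acid cycle. Its 4 genes had ratios below 0, at -0.19 to -0.06 with a median of -0.13, and so did all 6 of their kept probe sets. Below 0 were 44.9% of all kept genes and 50.4% of those in the brightest tertile. Sdhd, a membrane anchor, read 578.8 in control and 508.0 in Cbs null, a log2 ratio of -0.19. Sdha, the flavoprotein that oxidises succinate, read 879.4 and 779.8, a ratio of -0.17, with -0.07 in its other probe set. Sdhb, the iron-sulfur subunit, read 1435.3 and 1356.9, a ratio of -0.08, and Sdhc, the other anchor, read 770.2 and 740.1, a ratio of -0.06. No gene of the complex was past the limit of 0.32. Their 3 assembly factors, which insert flavin or mature the iron-sulfur subunit, lay on both sides of 0: Sdhaf1 had 0.03 and Sdhaf4 0.02, while Sdhaf2 had -0.15.

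Complex III genes were nearly level, with a median log2 ratio of 0.04 over 8 genes, of which 6 had a ratio above 0. The other 2 (25%) were below 0, where 44.9% of all kept genes and 50.4% of the brightest tertile were. Uqcrfs1, the Rieske iron-sulfur protein, read 820.1 in control and 886.0 in Cbs null, a ratio of 0.11. The core proteins Uqcrc1 and Uqcrc2 had 0.02 and 0.08, and the other probe set of Uqcrc2 had -0.05. Among the small subunits, Uqcrq had the highest ratio, at 0.11. Uqcrh, the hinge protein that sits at the site of cytochrome c, had the lowest, reading 1667.3 and 1473.0, a ratio of -0.18. Uqcr10 had 0.01, with -0.22 and 0.05 in its other probe sets, and Uqcr11 had -0.00. Uqcrb gave the highest signal of the complex, 5407.5 and 5590.2, at a ratio of 0.05, with -0.08 in its other probe set.

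**Figure D2:**
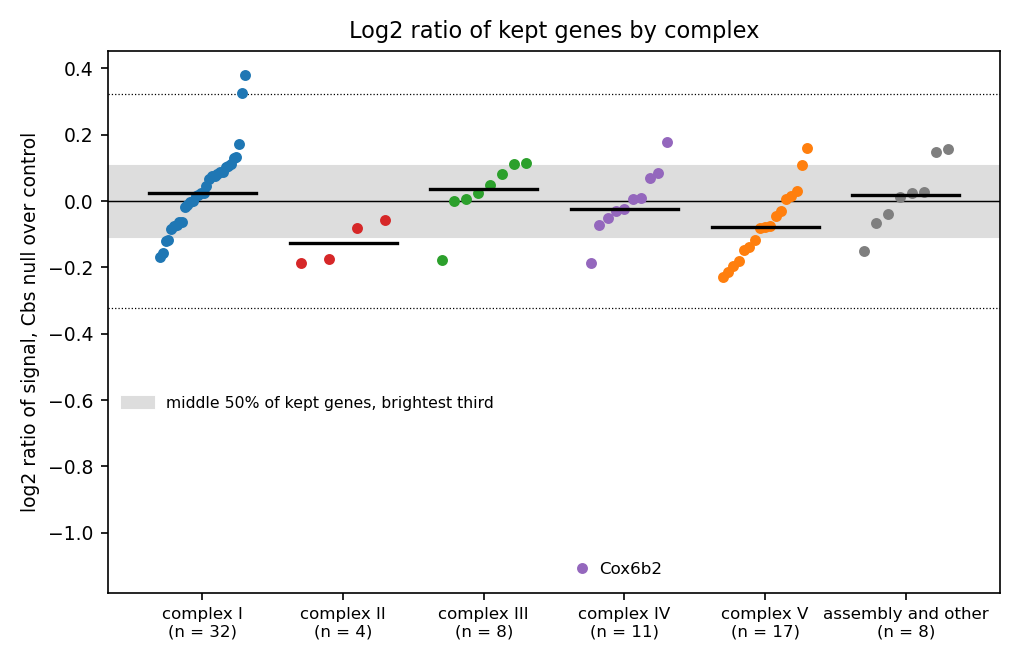
Log2 ratio of signal, Cbs null over control (y axis), for each kept gene by complex (x axis, with the number of genes), where each point is a gene, sorted within its complex, and the black bar is the median. The grey band spans the quartiles of the kept genes in the brightest tertile and the dotted lines mark the limit of 0.32: complexes II and V have medians of -0.13 and -0.08, Ndufa6 and Ndufa12 of complex I lie above the upper line, and Cox6b2 at -1.11 is the lowest point.

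Complex IV, cytochrome c oxidase, held the lowest ratio of all. Its 11 kept genes had a median log2 ratio of -0.03. Cox6b2, an isoform of the subunit that faces the intermembrane space and known chiefly from testis and sperm, had a signal of 300.4 on the control array and 139.5 on the Cbs null array, which is 2.15-fold lower and a log2 ratio of -1.11. At least 2-fold lower were 0.283% of all kept genes. Its mean signal stood at percentile 74.5 of all probe sets, below the brightest tertile of kept genes. It is represented by a single probe set, so the value has no second reading within the arrays, and with a pseudocount in place of the floor it was under 2-fold, at -0.95. The common isoform Cox6b1 read 4062.2 and 3916.7, a ratio of -0.05, with -0.03 in its other probe set. The 2 isoforms therefore had unequal ratios, although the level of the 1 probe set cannot be set against the other.

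Marker genes of other cell types differed on the same arrays. Over all kept genes 44.9% had a ratio below 0. Of the 12 kept genes of uterine natural killer cells 11 had a ratio below 0, with a median of -0.97. The summed signal of the 13 genes on the array was 19180.1 in control and 8874.7 in Cbs null, most of it from granzymes. Klrk1, at 73.9 and 76.5, and Ncr1, below the filter at 56.4 and 67.5, went the other way. Klrd1, at 242.2 and 171.1, and Il2rb, at 110.5 and 61.1, were lower in Cbs null. Of the 7 kept epithelial genes 6 were above 0, with summed signals over 9 genes of 2147.0 and 2956.4. All 8 macrophage genes were kept and 7 were above 0, with summed signals of 3199.3 and 3996.2. Embryonic red cell genes had the highest median of the marker lists, 0.90, with all 4 kept genes above 0. Summed signals over 7 genes were 3040.8 and 5576.1, most of it from Hbb-y at 2494.9 and 4490.3. Epor, below the filter at 47.1 and 35.9, went the other way. The part of these cell types in the Cox6b2 value was not tested. Male germ cell markers gave almost no signal: 10 of 11, among them Ldhc, Pgk2 and Tnp1, read below the floor of 14.3 on both arrays, and Prm1 read 22.8 and 18.3. Decidual genes were detected on both arrays: 7 of 8 were kept, 3 of them below 0, with a median of 0.02. The decidual prolactin Prl8a2 read 2542.7 and 3633.6 and the growth factor Bmp2 597.0 and 258.0, 2.31-fold lower, while Prl3c1 was dim at 16.9 and 9.4. All 7 smooth muscle genes of the muscle wall were kept and 4 were below 0, with a median of -0.04. Acta2 read 7868.8 and 7962.8, and Des had the lowest ratio of that list, -0.19. Of the 5 kept pericyte genes 3 were below 0, with a median of -0.08.

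The widely expressed subunits of complex IV differed little. Cox5b, a subunit on the matrix side, had 4 kept probe sets, with log2 ratios of -0.03 to 0.08. The brightest read 3171.6 in control and 3328.5 in Cbs null, a ratio of 0.07. Its 2 other probe sets were dim on both arrays, at 27.4 and 15.0 and at 7.6 and 2.1. Cox5a, its counterpart, was lower in all 3 of its probe sets, at -0.19, -0.34 and -0.14, with 2819.2 and 2479.3 in the brightest. Cox6a1 gave the highest signal of the complex, 4673.2 and 4952.9, a ratio of 0.08, with -0.12 in its other probe set. Cox4i1, the largest nuclear subunit, read 2894.2 and 2754.4, a ratio of -0.07. Cox6c had 0.01 and, in its other probe set, -0.32. Ndufa4, first described in complex I, had the highest ratio of the complex, reading 1420.6 and 1606.6, at 0.18.

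Of the restricted isoforms only Cox6b2 and Cox8c passed the filter. Cox8c, an isoform of testis, read 75.5 in control and 75.9 in Cbs null, just above the filter and level. Cox4i2, the isoform of lung and of oxygen-sensing cells, read 14.2 and 5.1, below the floor on both arrays. Cox6a2, the isoform of heart and skeletal muscle, read 20.1 and 12.6, and Cox7a1, of the same tissues, 24.6 and 18.1. Cox8b, of muscle and brown fat, read 9.7 and 27.3, with the control value below the floor. These 4 genes were dim on both arrays, so their ratios are imprecise. Markers of striated muscle were also mostly dim, with 6 of 11, among them Mb and Ckmt2, below the floor on both arrays. The 2 kept were below 0, where 44.9% of all kept genes were: Acta1 at 1651.7 and 1248.6 and Actc1 at 88.1 and 55.4. The summed signal was 1880.7 and 1414.3, most of it from Acta1. Below the filter, Ckm read 57.6 and 33.9, while Tnni3 at 7.6 and 18.4 went the other way. The part of striated muscle in the Cox6a2 and Cox7a1 values was not tested. Ucp1 and Cidea of brown fat read at most 1.6 on either array. Of the 5 kept fat cell genes 4 were above 0 and 1 below, where 44.9% of all kept genes were below. Summed signals over the 10 fat cell genes on the array were 3395.5 and 5211.8, and their part in the Cox8b value was not tested. The common partners were bright and nearly level in their brightest probe sets, with Cox7a2 at 3935.5 and 3857.8 and Cox8a at 993.1 and 975.9. The other probe set of Cox7a2 read 1616.7 and 1407.4, a ratio of -0.20. Cox7c, which is made in most tissues, read 54.4 and 71.1 in the brighter of its 2 probe sets. Because signal depends on probe affinity, this does not give the amount of its transcript.

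**Figure D3:**
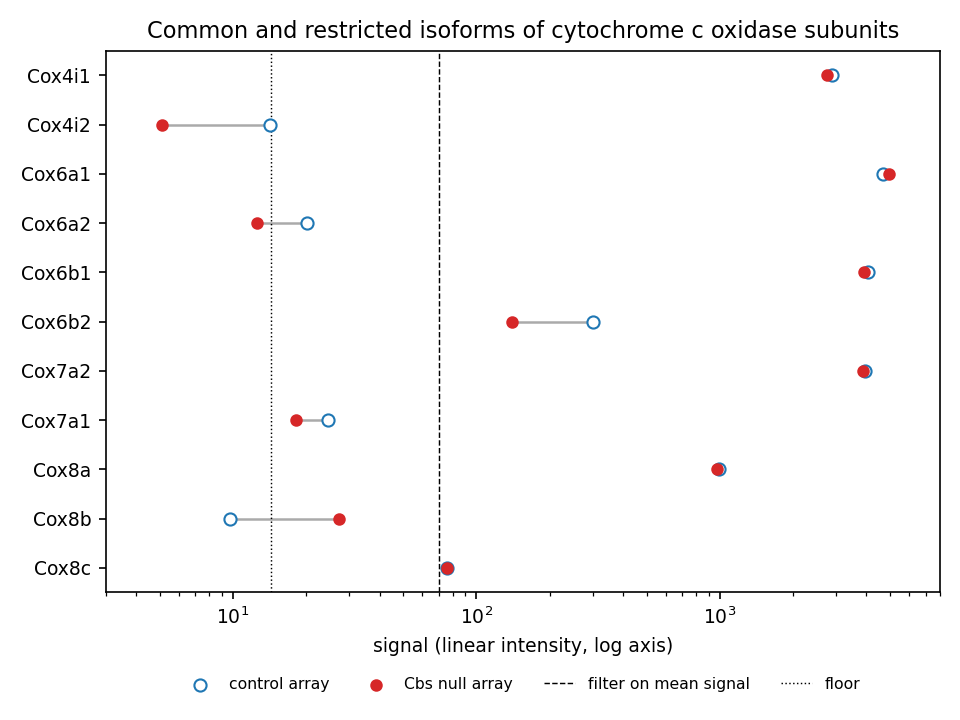
Signal (x axis, linear intensity, log axis) of common and restricted isoforms of complex IV subunits (y axis) on the control array (open points) and the Cbs null array (filled points), each from the brightest probe set of the gene. The common isoforms lie near 1000 or above with both points nearly on each other, Cox6b2 is the restricted isoform with signal well above the filter at 70.5 (dashed line), and Cox4i2, Cox6a2, Cox7a1 and Cox8b lie near the floor at 14.3 (dotted line).

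The promoters of a common and a restricted isoform are shown because their genes differed in ratio, and those of Cox6a1 and Sdhb because they hold the letters searched for the factors NRF1 and GABPA, known regulators of respiratory genes. The windows run from 250 bases before to 50 after the gene's start, 5′ to 3′ on the strand of the gene, from RefSeq on GRCm38.p6. Cox6b1 lies at chr7:30626065-30626364 (minus strand), Cox6b2 at chr7:4753045-4753344 (minus strand), Cox6a1 at chr5:115348909-115349208 (minus strand) and Sdhb at chr4:140961021-140961320 (plus strand). Capitals mark matches on either strand to GCATGCG (NRF1 core), CCGGAAG (ETS core, bound by GABPA) or AAGATGG (YY1 core). In Cox6a1 a match to the NRF1 core on each strand overlap in 1 palindrome.
Cox6b1: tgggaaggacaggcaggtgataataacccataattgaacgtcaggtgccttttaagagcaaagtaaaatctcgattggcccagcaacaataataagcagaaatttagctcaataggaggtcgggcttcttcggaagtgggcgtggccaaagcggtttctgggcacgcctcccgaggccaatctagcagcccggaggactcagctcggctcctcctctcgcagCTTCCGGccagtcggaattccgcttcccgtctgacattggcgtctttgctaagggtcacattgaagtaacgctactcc
Cox6b2: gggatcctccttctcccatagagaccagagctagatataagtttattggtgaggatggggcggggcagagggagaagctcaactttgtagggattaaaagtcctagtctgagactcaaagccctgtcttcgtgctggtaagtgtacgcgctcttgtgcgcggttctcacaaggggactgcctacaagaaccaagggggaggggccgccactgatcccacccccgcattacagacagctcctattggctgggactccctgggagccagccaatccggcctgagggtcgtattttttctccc
Cox6a1: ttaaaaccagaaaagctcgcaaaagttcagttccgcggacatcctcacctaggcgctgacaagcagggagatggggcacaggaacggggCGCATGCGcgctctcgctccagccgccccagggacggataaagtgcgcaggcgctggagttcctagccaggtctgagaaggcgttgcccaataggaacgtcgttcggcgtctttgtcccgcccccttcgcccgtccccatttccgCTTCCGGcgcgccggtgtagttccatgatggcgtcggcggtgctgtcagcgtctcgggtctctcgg
Sdhb: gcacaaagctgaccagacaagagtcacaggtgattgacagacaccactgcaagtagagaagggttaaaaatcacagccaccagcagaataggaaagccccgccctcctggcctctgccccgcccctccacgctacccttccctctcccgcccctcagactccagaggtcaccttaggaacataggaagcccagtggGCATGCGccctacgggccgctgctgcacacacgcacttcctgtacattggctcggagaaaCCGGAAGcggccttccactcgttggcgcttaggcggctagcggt

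The window of Cox6b2 holds none of the 3 motifs, which says only that these letters are not in these 300 bases. Cox6b1 has an ETS core that begins 28 bases before the start, and Cox6a1 has one 16 bases before it. Sdhb has an NRF1 core that begins 54 bases before the start and an ETS core just after it. RefSeq windows were found for 73 of the 87 genes. The NRF1 core was in 11 of them (15.1%), against 5.59% of the 9882 array genes with a window and 3.64% of all 27025 genes in the table. The ETS core was in 19 (26.0%), against 15.0% and 9.12%, and the YY1 core in 9 (12.3%), against 6.89% and 6.48%. At least 1 motif was in 34 of 73 windows (46.6%), against 24.9% of array genes, at a median GC content of 59.0% and 59.3%. On the strand of the gene alone, the ETS core was in 5 windows (6.85%), against 8.46% of array genes, so the order depended on counting both strands for that motif. By complex, the NRF1 core was in 3 of 15 windows of complex V, 2 of 30 of complex I and 1 of 11 of complex IV. It was also in 2 of 5 of complex III, 1 of 3 of complex II and 2 of 9 of the assembly class. The YY1 core was in 6 of 30 of complex I, 2 of 15 of complex V and 1 of 11 of complex IV. These counts are small. Of the 2 complex I genes past the limit of 0.32, Ndufa6 has an NRF1 core and Ndufa12 none of the 3. A match is a description of sequence and not a site shown to be bound.

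Complex V, ATP synthase, had 12 of 17 genes with a ratio below 0 and a median log2 ratio of -0.08. Of the kept genes in the brightest tertile, 50.4% were below 0. The 4 genes of the peripheral stalk, which holds the catalytic head still, were all below 0 in their brightest probe sets, with a median of -0.14. Atp5pb, subunit b of the stalk, read 3327.2 in control and 2868.6 in Cbs null, a ratio of -0.21, but its other probe set had 0.10. Atp5h had -0.14 and -0.13 in its 2 probe sets, Atp5o had -0.15 and 0.01, and Atp5j, with 1 probe set, had -0.12. Atp5b, the catalytic beta subunit of the F1 head, read 3306.4 and 2884.5, a ratio of -0.20. The alpha subunit Atp5a1 read 1909.2 and 1806.9, a ratio of -0.08, and the gamma subunit Atp5c1, the rotating shaft, had -0.03. Atp5d and Atp5e of the central stalk had 0.01 and 0.03.

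The 3 genes that encode the same subunit c, the rotor ring of the membrane part, were close to each other. Atp5g3 read 3831.2 in control and 3623.0 in Cbs null, a ratio of -0.08, Atp5g1 had -0.05 and Atp5g2 0.00. The small membrane subunits spread the most. Atp5k, which helps ATP synthase form dimers, was lower in all 3 of its probe sets, with ratios of -0.23, -0.07 and -0.46 and with 2215.0 and 1890.6 in the brightest. Atp5l, its partner in dimers, had -0.18. At the other end Atp5md had 0.16, reading 584.2 and 652.7, and Atp5j2 had 0.11 in its brightest probe set and -0.12 in the other. No gene of complex V was past the limit of 0.32.

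Of the assembly factors and Cox7a2l, 8 of 9 genes were kept, with a median log2 ratio of 0.02. Cox7a2l gave the highest signal of this class, 1419.4 in control and 1583.6 in Cbs null, a ratio of 0.16, but its 2 other probe sets had -0.01 and -0.05. Ndufaf1, an early factor of complex I assembly, read 138.8 and 153.8, a ratio of 0.15, on 1 probe set. Ndufaf4 had -0.04 and, in its dimmer probe set, -0.32. Ndufaf7, a methyltransferase of complex I assembly, had -0.07. Ndufaf5, an enzyme that modifies a core subunit, was below the filter at 67.1 and 52.6.

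The probe sets of a gene are the only repeated measure in these arrays. Of the 80 kept genes 40 had several kept probe sets, and in 25 (62.5%) the sign was shared by the 2 brightest, close to the 62.0% of all 2284 such genes. Their difference had an SD of 0.15, against 0.30 over all genes and 0.26 over the 619 genes with both probe sets in the signal range of the brightest tertile, of which 64.3% shared the sign. In 16 genes all kept probe sets were below 0, in 5 all were above 0, and in 19 the signs were mixed. Over all 2284 such genes, 619 were all below 0, 615 all above 0 and 1047 mixed. Within the signal range of the brightest tertile the counts were 212 all below 0, 145 all above 0 and 262 mixed. Ndufa7, Ndufa12, Ndufb11, Ndufs7 and Atp5d were the 5 with every probe set above 0. The ratios of most members are smaller than this spread between probe sets, so the order of genes within a complex is not resolved here.

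**Figure D4:**
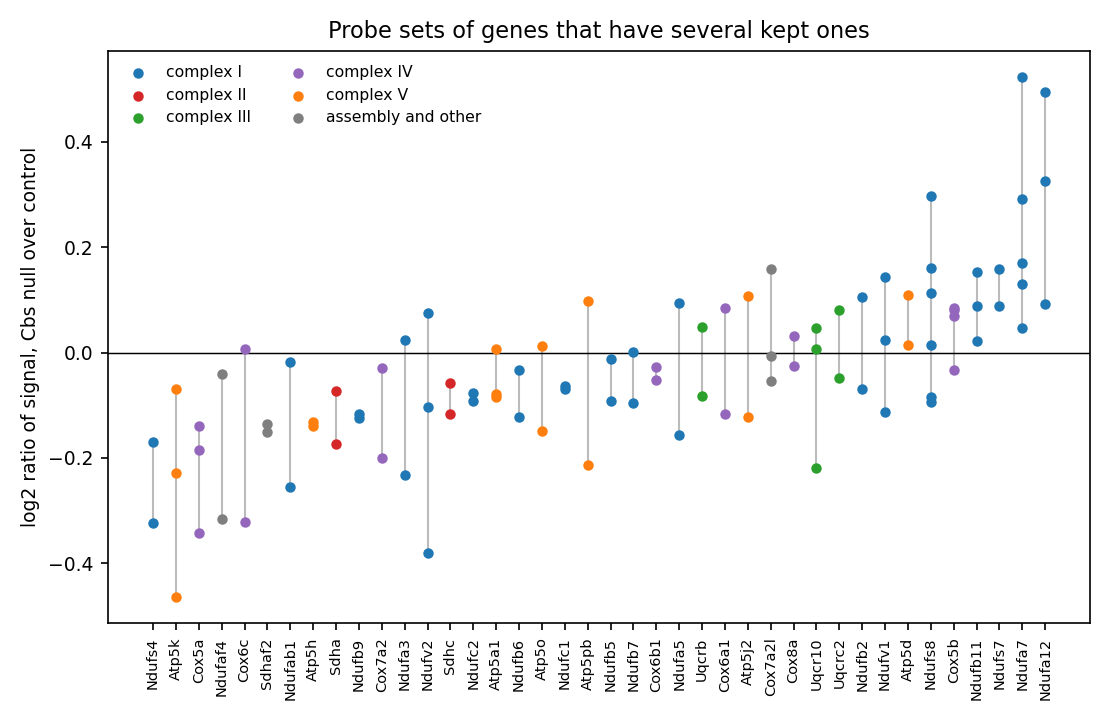
Log2 ratio of signal, Cbs null over control (y axis), of every kept probe set of the 40 genes that have several (x axis, sorted by the median), coloured by complex, with a grey line from the lowest to the highest. Many lines cross 0, and Ndufa12, Ndufa7, Atp5k and Cox5a are among the genes whose probe sets all have the same sign.

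Other genes of the pathway also had medians near 0. Each is given here and in the next paragraph by its brightest probe set only. Several have more, for example Oxa1l with 2, Cox15 with 4, Tomm20 with 5 and Hspa9 with 4. Of 24 kept electron carriers and assembly factors outside the name rule, 11 (45.8%) had a ratio below 0, near the 44.9% of all kept genes. Their median was 0.01, with quartiles of -0.14 and 0.12, wider than those of the 80 members. They were dimmer, with a median control signal of 233.3, against 1261.05 for the members and 232.8 for all kept genes. The quartiles of all kept genes were -0.11 and 0.16. Past the limit of 0.32 on the lower side were 2 of the 24, near the 6.31% of all kept genes. Oxa1l, which inserts proteins into the inner membrane, had the lowest ratio, with 149.1 on the control array and 98.9 on the Cbs null array, 1.51-fold lower, and Timmdc1, a complex I assembly factor, was 1.27-fold lower. The 2 highest were Cox15, of heme A synthesis, at 0.31 and the copper chaperone Sco2 at 0.29. Cytochrome c itself, Cycs, read 2301.3 and 1997.8, a ratio of -0.20. The 15 kept regulators of mitochondrial genes had a median of 0.01. Ppargc1b, a coactivator, had the lowest ratio, at 213.6 and 158.1, 1.35-fold lower, followed by Polg2, of the mitochondrial DNA polymerase, at -0.23. Tfam, which packages mitochondrial DNA, had the highest, at 0.13, followed by Nrf1 at 0.12. Ppargc1a did not pass the filter, at 19.0 and 38.8.

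Of 16 citric acid cycle genes, all kept, 9 (56.25%) were below 0, against 44.9% of all kept genes, with a median of -0.02. Idh2, isocitrate dehydrogenase of mitochondria, was the only one past the limit of 0.32, with 308.8 in control, 393.7 in Cbs null and a ratio of 0.35, and Dlst was next at 0.21. Past the limit on the higher side were 9.69% of all kept genes. Sucla2, of succinyl-CoA ligase, had the lowest ratio, -0.27, followed by Dlat at -0.14. The 17 kept carriers, pores and import genes had a median of -0.00. Slc25a10, the dicarboxylate carrier, was 1.37-fold higher, reading 119.8 and 163.8, and Timm23 had 0.17. Tomm20, an import receptor, had -0.22 and the chaperone Hspa9 -0.17.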

How the data were processed

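Biotinylated cRNA was made from 2 microg of total RNA of the dissected sites by the Affymetrix protocol, per the labels. The deposited values are intensity, 1 per probe set and array on a linear scale, which the authors produced in GCOS 1.4 (source: the submitters' processing notes). Algorithm, detection calls and build: not given in the sources used here. With a 2% trim, the mean was 200.08 on both arrays, so no further scaling was applied.

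Control probe sets (64) were set aside. Symbols came from the platform annotation, and all 160 member probe sets matched by gene identifier in RefSeq GRCm38.p6, used for names, gene order and promoter windows (the first listed of each gene). A floor of 14.3, the 25th percentile over both arrays, was set before log2. The ratio is Cbs null over control. The 8 probe sets with several symbols were left out. The number of arrays limits the precision.

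Named genes were Cox6b2, Cox5b, the 3 highest and 3 lowest ratios and the brightest gene of each class, every gene past 1.5-fold, all isoform pairs and genes with opposed probe sets, 1 of them past 0.32 (log2), 48 in all, and the 2 highest and 2 lowest of each pathway list. Others were chosen after their values were seen. The members and lists were chosen with earlier results of these data known. Alternatives are listed with their effect at the end. The scripts were tested on simulated data. A planned comparison of isoform proteins was not run. Computation used Python 3.11.15, pandas 2.3.3 and statsmodels 0.14.6.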

Additional observations from a re-analysis of the deposited data

How the results depend on the processing

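Quantile normalization, centring, a loess trend, other floors, a pseudocount of 32, other filters, the median over probe sets and the removal of less specific probe sets (IDs ending in _x_at or _s_at) were tried. Under these alternatives the median of complex II stayed between -0.15 and -0.10, complex V between -0.10 and -0.05, complex IV between -0.05 and -0.01, complex III between 0.01 and 0.04 and complex I between 0.00 and 0.05. The median of the assembly class lay between -0.01 and 0.02 and that of all members between -0.02 and 0.01, so neither has a settled sign. Leaving out the restricted isoforms left complex IV at -0.03.

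Counts past a limit moved with the filter. The number past 0.32 on the higher side was 2, but 4 with a filter at the 25th percentile or none, where Cox7c and Cox8b entered, and 1 with centring, a pseudocount or without the less specific probe sets. The number past it on the lower side was 1, but 4 with the filter at the 25th percentile or none, where Cox6a2, Cox7a1 and Ndufaf5 entered. At 1.5-fold higher the count was 0, but 1 with those filters. Past 0.32 and at 1.5-fold on the lower side it was 0 with a filter at the 75th percentile, which removes Cox6b2, and 0 without Cox6b2, an alternative added after the data were seen. At 2-fold lower it was 0 in both and 0 with a pseudocount. Cox6b2 lay between -1.14 and -0.95 wherever it was kept. Without the less specific probe sets Atp5pb had 0.10, Atp5j2 -0.12 and Cox5b -0.03, each opposite in sign to its main value. With the median over probe sets the sign also changed, among others for Ndufv2 at -0.10, Cox7a2l at -0.01, Cox6a1 at -0.02 and Atp5j2 at -0.01. The brightness of the probe set limits dim genes. No paired analysis was possible because each genotype had 1 array.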

Other observations

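Genes that neighbour Cox6b2 in the RefSeq order, looked up after its value was seen, did not share its ratio. Kmt5c, a histone methyltransferase next to it, read 156.9 in control and 148.5 in Cbs null, a log2 ratio of -0.08. Il11, a cytokine of decidualization 2 genes away on the other side, was below the filter at 48.2 and 66.7, and Hspbp1, 4 genes away, had -0.11. Other genes between them were dim (Tmem150b) or not named by a single-gene probe set here.

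Of the 8 probe sets that carry several symbols, 6 passed the filter, and none was past the limit of 0.32 (log2). That of Ndufs6b and Ndufs6, accessory subunits of complex I, had the lowest ratio, -0.25, reading 828.5 and 694.7. That of Ndufs5 and its pseudogene had the highest, 0.20, reading 385.0 and 442.7. The 2 probe sets of the Ndufb4 group had 0.06 and -0.21.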
